A study of Homo sapiens with 6 samples.

Results

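Transcript levels of 10 glycosyltransferase genes that build the glycolipid antigens of human pluripotent stem cells were compared between wild-type cells and cells with SNAI1 deletion. The set, named by symbol, was UGCG for the first step, A4GALT, B3GALNT1, B3GALT5, ST3GAL1 and ST3GAL2 for the globo-series, ST8SIA1 and B4GALNT1 for the ganglio-series, and FUT1 and FUT2 for fucosylation. All 10 were found, among 37803 gene symbols listed once in both expression tables of the series. The genes were selected on their measured difference between knockout and wild-type libraries in these same data. Their values in that comparison are therefore a description with no p-value, and nothing is read from how many of them differ.

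Glycosphingolipids are sugar chains on a ceramide anchor in the outer leaflet of the plasma membrane. UGCG and then B4GALT5 or B4GALT6 make lactosylceramide, from which separate enzymes start the globo-, ganglio- and lacto-series. Human pluripotent stem cells are known for globo-series antigens, SSEA-3 and its sialylated form SSEA-4, and lose them as they differentiate, when gangliosides become prominent. SNAI1 is a zinc-finger transcription factor known as a repressor of epithelial genes during epithelial-mesenchymal transition.

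RNA sequencing was done on H1 cells, an established human embryonic stem cell line, at day 2 of hematopoietic differentiation. The groups were wild-type cells (WT, n = 2) and the knockout groups SNAI1_KO_1 (n = 2) and SNAI1_KO_2 (n = 2), named after the leading number in the knockout titles, whose meaning the labels do not give. The study describes 2 SNAI1 knockout lines with frameshift mutations, and the groups were not matched to those lines. Every group, WT included, received 40 ng/ml of activin A with 50 ng/ml of BMP4 according to the labels, whereas the methods swap these doses. Levels are FPKM (fragment counts scaled to transcript length and to library size) in 2 tables, the unit being named in the second and assumed for the first. Each table held 1 library of every group and was normalized on its own, so knockout and WT libraries were compared within a table.

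FPKM summed to 624414 to 633851 per library in the first table and to 603399 to 605924 in the second. Absolute depth is unknown. The estimated depth of a knockout library relative to the WT library of its table was 0.874 to 0.966 for the first table and 1.09 to 1.11 for the second. SNAI1 itself was listed at 37.1 and 36.4 FPKM in WT, 51.6 and 47.8 in SNAI1_KO_1, and 68.6 and 55.0 in SNAI1_KO_2 (first table, then second). The SNAI1 transcript was higher than in WT in 4 of 4 knockout libraries (log2 difference 0.58 ± 0.0744 SE, adjusted p = 0.00461 by limma), so its level does not check the labels of lines with frameshifts. The SNAI1 call was lost without the term for the table, at an adjusted p of 0.076, and in the fit that left out the first table's WT library.

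Markers of the cell types that a day 2 culture can hold also moved with the groups. All 9 primitive streak and mesoderm markers were at 1 FPKM or more in every group. Their summed FPKM was 1687 and 1614 in WT and between 1105 and 1189 in the knockout libraries, although T, the mesoderm factor also called TBXT, was at 17.8 and 38.7 in WT and between 129.6 and 251.3 in the knockouts. The 8 pluripotency markers summed to 1230 and 1263 in WT and to 1462 to 1649 in the knockouts. POU5F1 carried most of that rise in the sum. In the first table the other 7 summed to 745.1 in WT and to 785.6 and 782.3 in the knockouts. In the second they summed to 633.2 in WT and to 653.1 and 634.5 in the knockouts. Of these 7, NANOG, SOX2, LIN28A, DPPA4 and ZFP42 were higher than WT in 4 of 4 libraries. TDGF1 was lower in 4 of 4, and DNMT3B differed in both directions. The 6 definitive endoderm markers summed to 3506 and 3129 in WT and to 1429 to 2040 in the knockouts. CER1 made up most of this sum, and the other 5 summed to 243.2 and 578.7 in WT and to 236.0 to 537.0 in the knockouts. Of these, SOX17 and FOXA1 were higher than WT in 4 of 4 libraries. The 9 amnion and trophoblast markers, of which HAND1 is also on the mesoderm list, summed to 277.7 and 257.6 in WT and to 94.8 to 110.7 in the knockouts, with CGA and CGB5 under 0.1 in every library. Without HAND1 the other 8 summed to 36.1 and 56.7 in WT and to 35.5 to 63.5 in the knockouts. Among them TFAP2A and KRT7 were higher than WT in 4 of 4 libraries. GATA3 and ISL1 were lower in 4 of 4, and TFAP2C differed in both directions. The 5 neuroectoderm markers summed to 81.5 and 96.1 in WT and to 50.5 to 74.2 in the knockouts. Nearly all of this was OTX2, at 79.6 and 93.2 in WT and 50.2 to 73.7 in the knockouts. PAX6 and LHX2 were also lower than WT in 4 of 4 libraries, ZIC1 differed in both directions, and SOX1 was under 0.1 in every library. The 7 endothelial and blood markers summed to 7.64 in WT and to 7.17 and 6.53 in the knockouts of the first table. In the second they summed to 6.62 in WT and to 8.13 and 8.92 in the knockouts. CD34 was lower than WT in 4 of 4 libraries (1.15 and 1.11 FPKM in WT, 0.0423 to 0.201 in the knockouts). RUNX1 was higher in 4 of 4, and PTPRC was listed at 0. The part of these shifts in the glycosyltransferase differences was not tested. In bulk RNA, fewer cells of a type and less RNA per cell cannot be told apart.

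SNAI1 is known to bind the E-box CAGGTG, and RefSeq promoters (build GRCh38.p14) were searched for these letters and their reverse complement CACCTG. Windows ran from upstream of each listed start site to just past it, 300 bases each, and 7 of the 10 genes had at least 1 window, 12 in all. The motif was found in 2 of the 12 windows, 1 of FUT1 and 1 of FUT2, beside 20.6% of all 35116 promoters in the RefSeq table and 18.6% of the 14385 promoters of genes tested here. Both genes were higher in the knockouts than in WT, as were UGCG, A4GALT and B3GALT5, whose windows held no motif. The 2 windows with the motif are shown with 1 window of A4GALT, which starts the globo-series, and with that of ST8SIA1. ST8SIA1 had the largest WT to knockout ratio among the 10 genes. Capitals mark the motif. In the FUT1 window it begins 199 and 69 bases before the start site, and in the FUT2 window 143 and 43 bases before it. Windows are written 5′ to 3′ on the strand of the gene. A match is a description of the letters, not a binding site.
FUT1, chr19:48755309-48755608, minus strand: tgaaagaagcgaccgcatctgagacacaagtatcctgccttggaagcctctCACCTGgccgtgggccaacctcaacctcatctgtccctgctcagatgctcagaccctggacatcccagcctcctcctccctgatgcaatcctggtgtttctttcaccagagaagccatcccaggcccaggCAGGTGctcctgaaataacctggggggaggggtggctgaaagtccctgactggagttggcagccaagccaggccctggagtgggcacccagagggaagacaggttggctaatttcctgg
FUT2, chr19:48695721-48696020, plus strand: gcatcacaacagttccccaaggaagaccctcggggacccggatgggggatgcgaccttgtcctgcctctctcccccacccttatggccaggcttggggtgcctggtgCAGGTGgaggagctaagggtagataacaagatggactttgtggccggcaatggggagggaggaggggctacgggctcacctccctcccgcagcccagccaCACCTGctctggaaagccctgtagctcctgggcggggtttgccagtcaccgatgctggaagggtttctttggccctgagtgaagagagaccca
A4GALT, chr22:42720821-42721120, minus strand: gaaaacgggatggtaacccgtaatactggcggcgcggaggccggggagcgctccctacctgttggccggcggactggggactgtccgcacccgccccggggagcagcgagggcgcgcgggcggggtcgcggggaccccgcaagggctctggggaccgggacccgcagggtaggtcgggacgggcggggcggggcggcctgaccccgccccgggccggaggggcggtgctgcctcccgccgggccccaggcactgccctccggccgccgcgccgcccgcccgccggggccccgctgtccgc
ST8SIA1, chr12:22334658-22334957, minus strand: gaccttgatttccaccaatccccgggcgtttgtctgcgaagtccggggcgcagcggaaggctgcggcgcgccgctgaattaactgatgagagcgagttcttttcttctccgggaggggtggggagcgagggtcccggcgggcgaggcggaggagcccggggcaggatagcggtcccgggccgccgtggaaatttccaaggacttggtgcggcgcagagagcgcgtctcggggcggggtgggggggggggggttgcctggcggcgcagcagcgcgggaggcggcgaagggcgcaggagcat

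Of the 10 glycosyltransferases, 6 were higher and 4 were lower than the WT library of the same table in 4 of 4 knockout libraries. Among all 13909 genes with a mean of at least 1 FPKM, 26.2% were higher and 35.1% were lower in all knockout libraries. With that minimum, 7 of the 10 genes entered the fit. B3GALT5, B4GALNT1 and FUT2 were under the minimum and are given as levels only. They count among the 10 above but not among the 13909 genes.

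**Figure D1:**
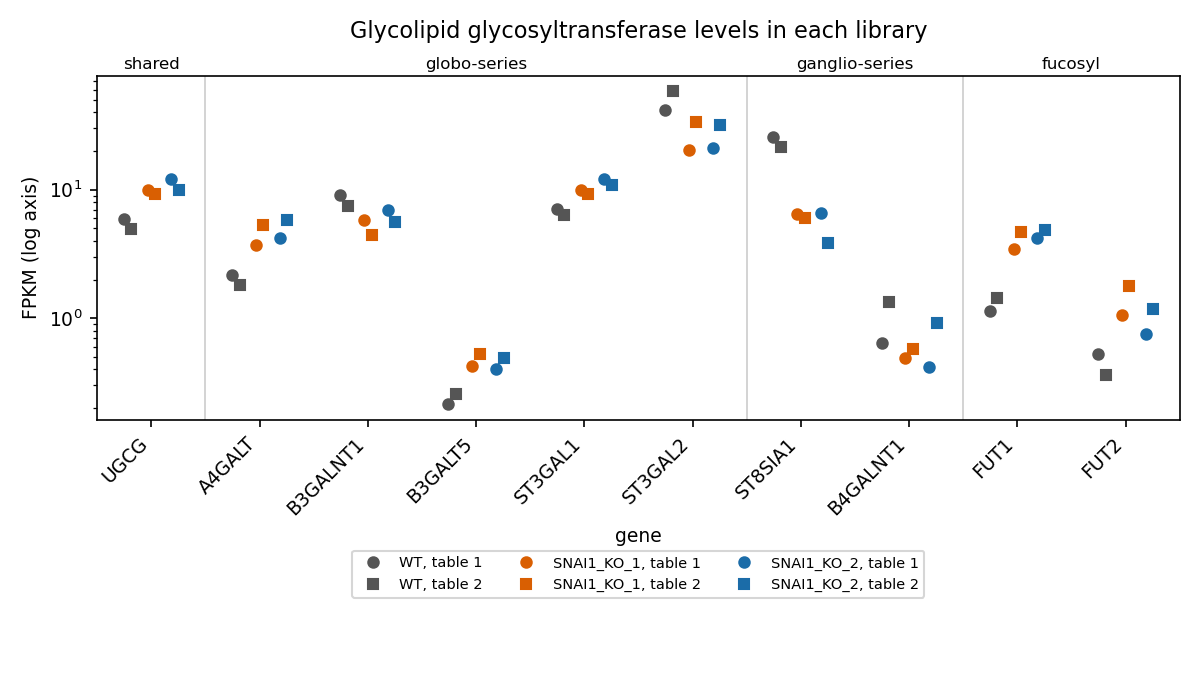
FPKM of each gene (log axis) in the 6 libraries, with circles for the first table, squares for the second and a colour for each group. In ST8SIA1 the WT libraries (25.7 and 21.7 FPKM) stand above the 4 knockout libraries (3.87 to 6.58), while in FUT1 they stand below them (1.14 and 1.43 against 3.48 to 4.89).

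UGCG, glucosylceramide synthase, adds glucose to ceramide and feeds every series. Its level was 5.90 and 4.91 FPKM in WT, 9.90 and 9.32 in SNAI1_KO_1, and 12.0 and 9.91 in SNAI1_KO_2. All 4 knockout libraries were above both WT libraries, by 1.68 to 2.04 times within a table. The log2(FPKM + 1) difference between both knockout groups and WT was 0.82 ± 0.088 (SE).

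A4GALT adds an α1,4-galactose to lactosylceramide and so commits it to the globo-series. It was at 2.16 and 1.83 FPKM in WT (2.00 ± 0.239, mean ± SD, n = 2), 3.71 and 5.30 in SNAI1_KO_1 (4.51 ± 1.13), and 4.19 and 5.84 in SNAI1_KO_2 (5.01 ± 1.17). The groups did not overlap, and the knockout to WT ratio was 1.71 and 1.93 for the first table and 2.90 and 3.20 for the second. The log2 difference of both knockout groups from WT was 0.93 ± 0.162, the largest standard error among the 7 genes fitted. Without the WT library of the second table it was 0.64.

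B3GALNT1 follows A4GALT and converts its product to globoside. Its level was 9.09 and 7.44 FPKM in WT, 5.81 and 4.43 in SNAI1_KO_1, and 6.91 and 5.66 in SNAI1_KO_2. The knockout libraries were below both WT libraries, with ratios to WT between 0.596 and 0.760 and a log2 difference of -0.47 ± 0.0885. Thus the first and the next globo-series enzymes differed from WT in opposite directions.

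B3GALT5 extends globoside to the SSEA-3 structure. It was barely expressed in any library, at 0.216 and 0.257 FPKM in WT, 0.423 and 0.529 in SNAI1_KO_1, and 0.405 and 0.490 in SNAI1_KO_2. Knockout libraries were 1.88 to 2.06 times the WT library of their table, all under 1 FPKM. The antisense gene B3GALT5-AS1, which overlaps it, was at 1.07 and 0.897 FPKM in WT and 1.30 to 1.47 in the knockouts. It was also higher than WT in 4 of 4 knockout libraries (log2 difference 0.26, adjusted p = 0.223 by limma).

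ST3GAL1 and ST3GAL2 add α2,3-sialic acid to terminal galactose. ST3GAL2 is the transferase best known for making SSEA-4 from the SSEA-3 structure, while ST3GAL1 acts mainly on core 1 O-glycans. ST3GAL2 was at 41.8 and 58.2 FPKM in WT, 20.2 and 33.4 in SNAI1_KO_1, and 21.1 and 32.1 in SNAI1_KO_2. Every knockout library was below both WT libraries, and WT was 1.74 to 2.07 times the knockout library of its table. The log2 difference was -0.90 ± 0.0697.

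ST3GAL1 showed the opposite order. It was at 7.05 and 6.31 FPKM in WT, 9.97 and 9.23 in SNAI1_KO_1, and 12.2 and 10.8 in SNAI1_KO_2, a log2 difference of 0.58 ± 0.0793. The ratio of ST3GAL2 to ST3GAL1 was 5.93 in WT, 2.03 in SNAI1_KO_1 and 1.73 in SNAI1_KO_2 for the first table. For the second it was 9.23, 3.62 and 2.96. ST3GAL2 remained the higher of the pair in all 6 libraries.

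ST8SIA1, GD3 synthase, adds a second sialic acid to GM3 and opens the b-series of gangliosides. It was at 25.7 and 21.7 FPKM in WT (23.7 ± 2.86), 6.44 and 6.04 in SNAI1_KO_1 (6.24 ± 0.285), and 6.58 and 3.87 in SNAI1_KO_2 (5.22 ± 1.92). The groups did not overlap, and within a table WT was 3.59 to 5.61 times the knockout. The log2 difference of -1.89 ± 0.133 was the largest of the 7 genes fitted. CMAS, which overlaps ST8SIA1 on the opposite strand and makes CMP-sialic acid, was at 43.8 and 31.5 FPKM in WT and 27.5 to 40.0 in the knockouts (log2 difference -0.16, adjusted p = 0.0969).

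B4GALNT1 adds N-acetylgalactosamine to GM3 and GD3, giving GM2 and GD2. It was at 0.647 and 1.34 FPKM in WT, 0.490 and 0.575 in SNAI1_KO_1, and 0.420 and 0.910 in SNAI1_KO_2. WT was higher within each table, but the knockout library of SNAI1_KO_2 in the second table lay above the WT library of the first, so the groups overlapped. SLC26A10, which overlaps B4GALNT1 on the opposite strand, was also lower than WT in 4 of 4 knockout libraries (1.20 and 2.35 FPKM in WT, 0.0712 to 1.07 in the knockouts). Whether counting used strand is not given in the sources used here, so reads of such overlapping pairs, including B3GALNT1 with NMD3, cannot be told apart.

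FUT1 and FUT2 add α1,2-fucose to terminal galactose. The products are H antigens and, on the SSEA-3 structure, Globo H. FUT1 was at 1.14 and 1.43 FPKM in WT (1.29 ± 0.206), 3.48 and 4.73 in SNAI1_KO_1 (4.10 ± 0.884), and 4.19 and 4.89 in SNAI1_KO_2 (4.54 ± 0.491). All 4 knockout libraries exceeded both WT libraries, by 3.04 to 3.67 times within a table, and the log2 difference was 1.21 ± 0.116. Among the genes fitted this was the largest difference above WT.

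FUT2, its neighbour on chromosome 19, was at 0.527 and 0.364 FPKM in WT, 1.07 and 1.79 in SNAI1_KO_1, and 0.757 and 1.18 in SNAI1_KO_2. The ratio to WT was 1.44 to 2.03 in the first table and 3.26 to 4.93 in the second. FUT1 was higher than FUT2 in every library, by 2.17 to 5.54 times. The related pseudogene SEC1P, with which reads of the pair could be shared, was at most 0.0741 FPKM.

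**Figure D2:**
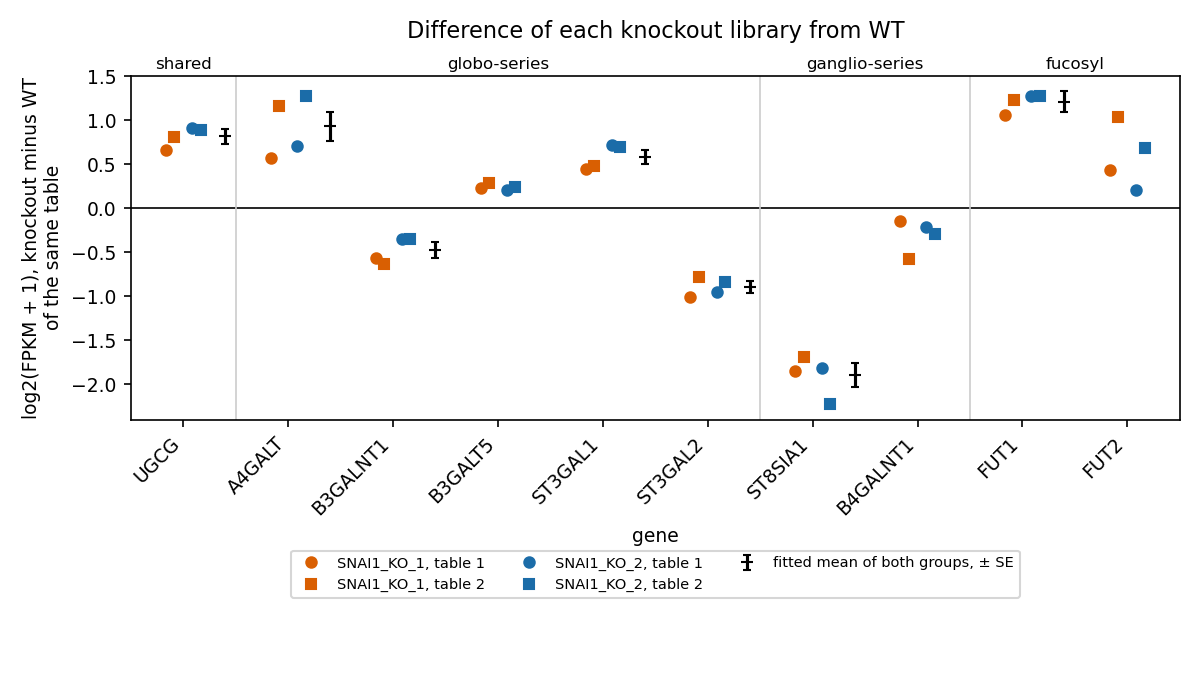
Difference on the log2(FPKM + 1) scale between each knockout library and the WT library of the same table, with the fitted mean of both knockout groups ± SE for the 7 genes fitted. Fitted values run from -1.89 for ST8SIA1 to 1.21 for FUT1, and all 4 points of each gene lie on the same side of 0.

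FPKM is scaled by transcript length, so levels can be ordered between genes. Both WT libraries gave the same order, from ST3GAL2 through ST8SIA1, B3GALNT1, ST3GAL1, UGCG, A4GALT, FUT1, B4GALNT1 and FUT2 down to B3GALT5. Of the neighbours in that order, FUT1 and B4GALNT1 were the pair whose WT values overlapped. ST3GAL2 ranked 1 and B3GALT5 ranked 10 in all 6 libraries. ST8SIA1 ranked 2 in WT and between 4 and 7 in the knockouts.

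In SNAI1_KO_1 the values of UGCG and ST3GAL1 overlapped, as did those of A4GALT with FUT1 and B3GALNT1, and those of B4GALNT1 with B3GALT5. In SNAI1_KO_2 UGCG again overlapped with ST3GAL1, while ST8SIA1, B3GALNT1, A4GALT and FUT1 formed a run of overlapping values between 3.87 and 6.91 FPKM. B4GALNT1 overlapped there with both FUT2 and B3GALT5. With both tables pooled, the order of these genes in the knockouts was not resolved beyond the spread between libraries. The ratio of ST8SIA1 to A4GALT was 11.9 in both WT libraries, 1.74 and 1.14 in SNAI1_KO_1, and 1.57 and 0.662 in SNAI1_KO_2.

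The knockout groups were then compared with each other, a difference that played no part in choosing the genes. None of the 7 genes fitted was called (adjusted p = 1.0 for each, limma), as for all 13909 genes tested, of which 0 were called and 521 had an unadjusted p under 0.05. The difference of SNAI1_KO_2 from SNAI1_KO_1 was 0.24 for ST3GAL1 (95% interval 0.0060 to 0.47) and 0.25 for B3GALNT1 (-0.0034 to 0.51) on the log2 scale. It was 0.17 for UGCG (-0.088 to 0.43), 0.13 for A4GALT (-0.34 to 0.60), 0.13 for FUT1 (-0.21 to 0.46) and -0.25 for ST8SIA1 (-0.64 to 0.14). ST3GAL2 had the narrowest interval, from -0.20 to 0.20. Both groups share the WT libraries in the comparisons above, so their likeness against WT is not independent.

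At lactosylceramide, A4GALT, ST3GAL5 (GM3 synthase) and B3GNT5 (which starts the lacto- and neolacto-series) act on the same substrate. Their summed FPKM was 9.30 to 10.4 in WT and 9.52 to 9.83 in the knockouts. A4GALT made up 20.8% and 19.6% of that sum in WT, 38.5% and 53.9% in SNAI1_KO_1, and 43.9% and 61.4% in SNAI1_KO_2. The share of B3GNT5 was 62.7% and 69.7% in WT and between 24.6% and 37.8% in the knockouts. ST3GAL5 held 16.4% and 10.7% in WT and 14.1% to 23.6% in the knockouts. These are shares of transcripts, not of enzyme activity.

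**Figure D3:**
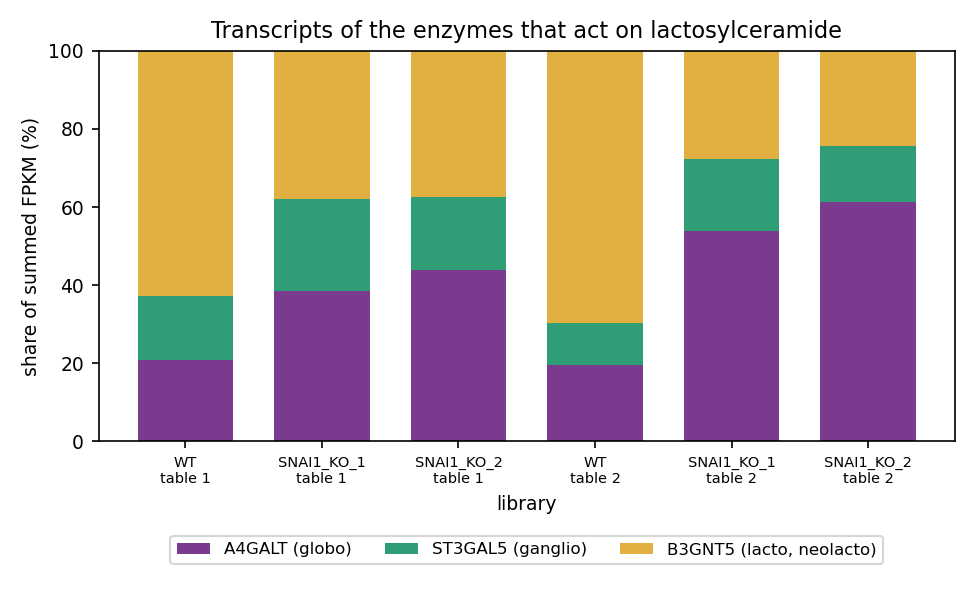
Share (%) of A4GALT, ST3GAL5 and B3GNT5 in their summed FPKM in each library. B3GNT5 holds the largest share in both WT libraries (62.7% and 69.7%), while A4GALT runs from 38.5% to 61.4% in the knockouts. In the SNAI1_KO_1 library of the first table both are nearly level (38.5% and 37.8%).

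B3GNT5 was at 6.52 and 6.48 FPKM in WT, 3.64 and 2.72 in SNAI1_KO_1, and 3.58 and 2.34 in SNAI1_KO_2. It fell by 0.90 on the log2 scale (SE 0.132, adjusted p = 0.00697 by limma), a call that was lost without the WT library of the second table. MCF2L2, which overlaps B3GNT5 on the opposite strand, was lower as well, at 6.28 and 5.69 FPKM in WT and 2.89 to 3.66 in the knockouts. ST3GAL5 did not pass the test (0.26 ± 0.137, adjusted p = 0.209).

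Other genes were taken from lists made for the pathway as a whole and for keratan sulfate antigens, together called pathway genes here. In all, 65 genes were found and 52 tested. Of these, 11 were higher, 8 were lower and 33 were not called, with a median log2 difference of 0.000987 beside -0.05 over all genes tested. The calls in both directions came to 36.5% of the 52, where 4348 of all 13909 genes were called (15.8% higher and 15.4% lower). The keratan sulfate list, which is outside the glycosphingolipids, had the largest called share, 80.0% of its 5 tested genes. The other lists ran from 0.0% to 50.0%. Nothing is read from the total about glycosphingolipid genes. When the table was not a term in the model, 3 of the 52 were called (B3GNT7, GCNT2 and ST6GALNAC5).

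Upstream of UGCG, 2 of 10 tested ceramide synthesis genes rose and none fell. They were SPTLC3, a subunit of serine palmitoyltransferase (0.89 ± 0.182, adjusted p = 0.0185), and the ceramide synthase CERS4 (0.44 ± 0.116, adjusted p = 0.0394). Both lactosylceramide synthases rose, B4GALT5 by 0.56 ± 0.0642 (adjusted p = 0.00313) and B4GALT6 by 0.50 ± 0.0916 (adjusted p = 0.0136). B4GALT5 was at 25.1 and 23.8 FPKM in WT and 35.1 to 37.7 in the knockouts, which puts it above UGCG in every library. The B4GALT6 call was lost when any library was left out, and that of SPTLC3 without either WT library or the SNAI1_KO_1 library of the second table. CERS4 lost its call in 4 of the 6 fits that left out a library, and its difference was 0.24 without the WT library of the second table.

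Beside ST8SIA1, 5 ganglio-series genes were tested, of which 1 rose, 1 fell and 3, ST3GAL5 included, did not pass. ST6GALNAC5, which makes α-series gangliosides, was at 9.04 and 8.73 FPKM in WT and 17.7 to 24.5 in the knockouts and rose by 1.17 ± 0.0778 (adjusted p = 0.000643). ST6GALNAC6, a related sialyltransferase, differed by -0.66 ± 0.108 (adjusted p = 0.00952), a call lost when the first table's WT library was left out. B3GALT4, which makes GM1, was listed at 0 in all 6 libraries.

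In the lacto- and neolacto-series, 1 of 12 tested genes rose and 5 fell, with a median log2 difference of -0.28. The genes that fell were B3GNT5, the galactosyltransferases B4GALT2 and B4GALT4, and the sialyltransferases ST3GAL4 and ST3GAL6 (ST3GAL6 -0.91 ± 0.132, adjusted p = 0.00661). The ST3GAL6 and B4GALT4 calls were lost without either WT library, and that of ST3GAL4 without any 1 of the 6 libraries. GCNT2, which branches polylactosamine into the I antigen, rose by 1.15 ± 0.0854 (adjusted p = 0.000851). FUT4, a fucosyltransferase for the SSEA-1 epitope, did not pass the test (0.16, adjusted p = 0.319). FUT9, the other enzyme known for SSEA-1, was under the minimum at 0.182 and 0.195 FPKM in WT and 0.480 to 0.632 in the knockouts.

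On the list of globo-series extension genes, GBGT1, linked to the Forssman structure, did not pass the test (-0.43 ± 0.139, adjusted p = 0.069). Whether its product is active in these cells was not tested. The keratan sulfate list covers the carrier and the chains of the stem cell epitopes known by TRA names. Of its 5 tested genes 3 rose and 1 fell. PODXL, the carrier podocalyxin, was at 57.6 and 101.8 FPKM in WT and 158.9 to 218.9 in the knockouts (1.23 ± 0.157, adjusted p = 0.00443).

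The sulfotransferases on that list differed in direction. CHST2, known to sulfate N-acetylglucosamine, was at 2.83 and 4.53 FPKM in WT and 12.6 to 32.3 in the knockouts (2.21 ± 0.169, adjusted p = 0.000912). CHST1, the keratan sulfate galactose sulfotransferase, fell by 1.25 on the log2 scale (SE 0.124, adjusted p = 0.00204). B3GNT7, which elongates the chain, rose by 0.99 ± 0.0734 (adjusted p = 0.000837).

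Of the 12 lysosomal breakdown genes, all tested, 1 rose and 1 fell. The sialidase NEU1 rose by 0.49 ± 0.0745 (adjusted p = 0.00762, lost without the first table's WT library), and ARSA, arylsulfatase A, differed by -0.67 ± 0.0943 (adjusted p = 0.00605, lost without the WT library of the second table). GLA, the α-galactosidase that removes the galactose which A4GALT adds, did not pass the test (-0.17, adjusted p = 0.14). Of 3 glycolipid transfer genes tested, GLTP, the cytosolic glycolipid transfer protein, rose by 0.42 ± 0.103 (adjusted p = 0.0328), a call lost on leaving out any library but the SNAI1_KO_1 library of the second table.

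**Figure D4:**
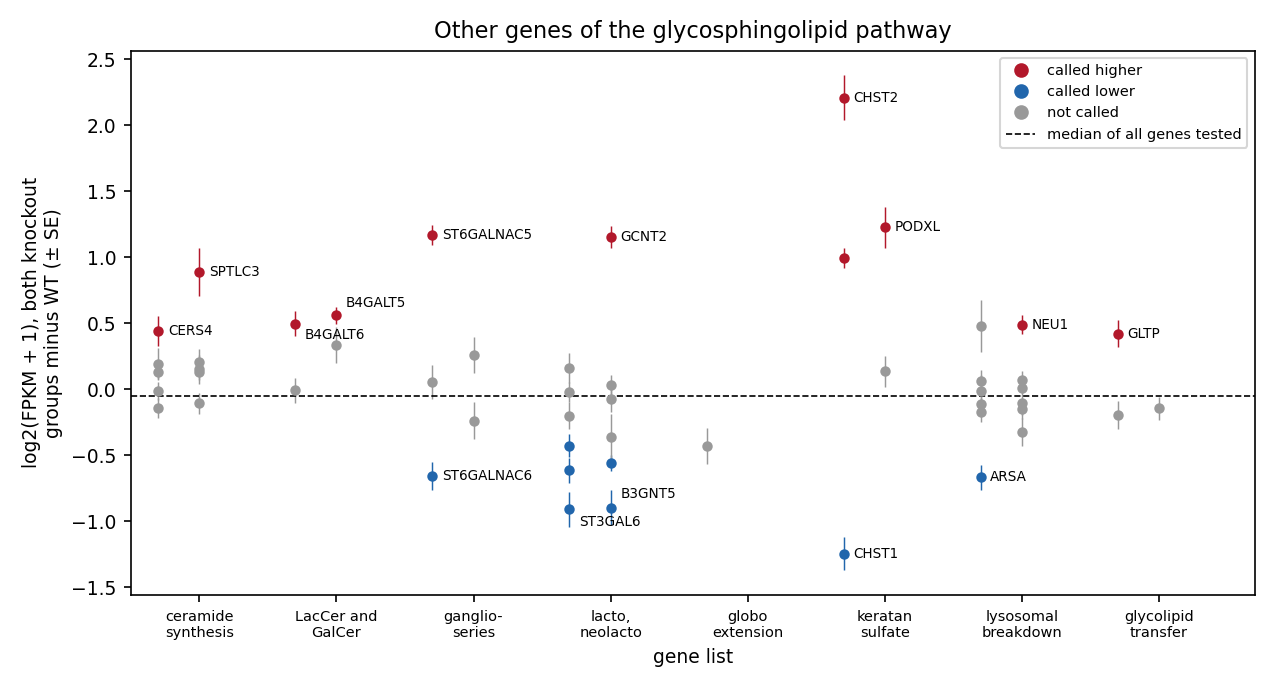
Log2 difference of both knockout groups from WT (± SE) for the 52 tested pathway genes outside the set, by list, with red for genes called higher, blue for lower and grey for genes not called. CHST2 (2.21) and CHST1 (-1.25) mark the extremes, both from the keratan sulfate list, which is outside the glycosphingolipids. The dashed line at -0.05 is the median of all genes tested.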

How the data were processed

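The labels describe RNA-seq of 6 samples, each library from 2 ug of total RNA. The authors deposited FPKM per gene symbol in 2 tables of 38100 and 58324 rows. A heading line of the second names the unit, which was assumed for the first. The submitters' processing notes list BWA, Bowtie, RSEM and hg19, without role or order, and the gene annotation is not given in the sources used here. Columns give the group but no replicate number, and 0 columns were left unused. Repeated symbols (94 in the first table, 340 in the second) were left out.

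Genes with a mean of at least 1 FPKM (13909) were fitted as log2(FPKM + 1), which understates the change of low genes, with limma 3.58.1 in R 4.3.3 (lmFit, contrasts.fit, eBayes with trend). The model had a mean per group and the table as a block, with 2 residual degrees of freedom. Two-sided p-values were Benjamini-Hochberg adjusted over all genes (threshold 0.05). The difference between the second and the first table was correlated between groups across genes. The r was 0.616 for WT with SNAI1_KO_1, 0.666 for WT with SNAI1_KO_2 and 0.676 for the 2 knockout groups. Nothing says that libraries of a group came from separate cultures, so p-values measure the spread between these samples, which may be technical.

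The genes of the set, the lists and the naming rule were chosen with earlier results of these data known. Named were SNAI1, the set, 10 preset pathway genes and up to 3 called genes per list with the largest difference and 1 sign in 4 of 4 within-table comparisons, plus B3GNT7, B4GALT2, B4GALT4 and ST3GAL4, the neighbours and the single markers, chosen after their values were seen. Overlapping genes were taken from GENCODE 29. Alternatives were pseudocounts of 0.1 and 10, no filter, a minimum of 5 FPKM, quantile and median-ratio scaling, no trend, no block and leaving out each library.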

Additional observations from a re-analysis of the deposited data

How the results depend on the processing

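The fit without the replicate block called 1065 genes against WT and 3 of the 52 pathway genes, in place of 4348 and 19, and 71.9% of its calls were higher, in place of 50.6%. Without the filter on low values 2139 genes and 10 pathway genes were called. Those 10 were ARSA, B3GNT7, B4GALT2, B4GALT5, B4GALT6, CHST1, CHST2, GCNT2, NEU1 and ST6GALNAC5, so PODXL and B3GNT5 were among the genes that lost the call. Leaving out 1 library at a time gave 1728 to 2840 genes and 10 to 16 pathway genes. The lowest counts came without a WT library, 1828 and 11 for the first table and 1728 and 10 for the second. The cause of these shifts was not tested, beyond fewer samples in the fits that left one out. No genes were called between the knockout groups under any alternative, and an unadjusted p under 0.05 was reached by 81 to 1313 genes.

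Of 273 values under alternatives for the 20 genes outside the set named against WT, 226 kept their side of the threshold, 47 lost the call and 0 changed sign. The log2 differences of the 7 fitted glycosyltransferases, which carry no test, changed sign in 0 of 96. Fractional FPKM hold no read totals, so genes near or under 1 FPKM (B3GALT5, B4GALNT1, FUT2) have unknown counting error.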
